A study of Mus musculus with 6 samples.

Results

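The respiratory chain and ATP synthase of the inner mitochondrial membrane were examined through their nuclear-encoded subunit genes in CD11b+ cells purified from tumors grown in MCT2 CO or MCT2 KO mice. The genes were chosen by symbol: *Nduf* genes of the a, b, c, s and v series, *Sdha* to *Sdhd*, *Uqcr* genes, *Cox4* to *Cox8* genes and *Atp5* genes with at least 60 counts over the 6 samples. Of the 25701 genes in the count table, 88 had such a symbol and 81 reached this total: 36 of complex I, 4 of complex II, 8 of complex III, 15 of complex IV and 18 of complex V. All 81 passed the filter on low counts and were tested. *Ndufb1*, counted with complex I, is listed by GENCODE M21 as the non-coding *Ndufb1-ps*, without a coding transcript length. Of its exon bases, 48.5% lie inside the span of *Cpsf2*. The symbols took in *Cox5b-ps*, with 71 counts in all, whose symbol marks a pseudogene but which GENCODE M21 lists as protein-coding, *Atp5if1*, which encodes the inhibitor of ATP synthase, and *Cox7a2l*, whose product links complexes III and IV, and *Ndufa4*, counted here with complex I, is now regarded as a complex IV subunit.

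All mice carried MCT2 loxP/loxP and the mCre-Tg transgene on a C57BL/6 background. The MCT2 KO mice received daily tamoxifen, which activates the Cre, at an age of 8 weeks, and the MCT2 CO mice received vehicle, so exposure to tamoxifen and deletion of MCT2 cannot be told apart. TC1 cells, a mouse lung epithelial tumor line that was not itself deleted for MCT2, were then injected under the skin of the flank, and tumors were taken on day 24. CD11b+ cells, which include monocytes, macrophages and neutrophils, were selected with magnetic beads, and poly-A RNA of 3 MCT2 CO and 3 MCT2 KO mice was sequenced. The labels name lung as the tissue and purified macrophage as the cell type.

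Complexes I and II take electrons from NADH and succinate, complex III passes them from ubiquinol to cytochrome c, and complex IV passes them on to oxygen. The proton gradient built by complexes I, III and IV drives complex V, the ATP synthase. Most subunits are encoded in the nucleus and a small set of core subunits in mitochondrial DNA, and complex II, which also belongs to the citric acid cycle, is entirely nuclear-encoded. In macrophages, the balance between oxidative phosphorylation and glycolysis is known to differ between activation states, and MCT2 carries pyruvate and lactate across membranes.

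The nuclear genes of the complexes are known targets of the factors NRF-1, GABP (an ETS factor) and YY1. RefSeq promoters (GRCm38.p6, from 250 bases before to 50 bases after the start) were matched to 66 of the 81 genes. The NRF-1 core GCGCANGCG, searched on both strands, lay in 31.8% of these 66 genes against 14.3% of the 10610 tested genes with a promoter. The ETS core CCGGAAG lay in 24.2% against 19.0%, and the YY1 core AAGATGGC in 15.2% against 4.99%. NRF-1 matches were unevenly spread, with 8 of 15 genes of complex V, 8 of 32 of complex I, 2 of 3 of complex II, 2 of 5 of complex III and 1 of 11 of complex IV. Each match is a description of the letters in the window and was not linked to binding. The 4 promoters shown are those of *Sdha*, which had the smallest p of complex II, of *Cox6a1*, the single complex IV gene with an NRF-1 match, of *Cox8a*, the other complex IV gene above 10 CPM whose groups did not overlap, and of *Ndufv3*, which had the smallest p of all 81 genes. Capitals mark NRF-1 and ETS matches. The *Sdha* promoter (chr13:74350191-74350490, minus strand) held 3 NRF-1 matches, the *Cox6a1* promoter (chr5:115348909-115349208, minus strand) 3 NRF-1 matches, of which the first and second overlap, and 1 ETS match. The *Cox8a* promoter (chr19:7217567-7217866, minus strand) held 2 ETS matches, and in that of *Ndufv3* (chr17:31519865-31520164, plus strand) none of the 3 cores was found.
Sdha: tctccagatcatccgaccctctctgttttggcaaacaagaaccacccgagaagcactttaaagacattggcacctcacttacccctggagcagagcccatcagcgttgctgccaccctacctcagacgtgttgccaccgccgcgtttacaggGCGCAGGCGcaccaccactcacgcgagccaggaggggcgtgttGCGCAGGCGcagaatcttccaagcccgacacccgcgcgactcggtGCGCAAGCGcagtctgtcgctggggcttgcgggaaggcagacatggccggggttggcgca
Cox6a1: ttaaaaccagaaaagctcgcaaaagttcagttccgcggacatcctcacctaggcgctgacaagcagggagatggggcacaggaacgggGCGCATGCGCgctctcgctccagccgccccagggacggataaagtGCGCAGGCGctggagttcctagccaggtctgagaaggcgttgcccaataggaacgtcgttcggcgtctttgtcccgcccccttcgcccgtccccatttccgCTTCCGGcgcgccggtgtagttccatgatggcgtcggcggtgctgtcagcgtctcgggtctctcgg
Cox8a: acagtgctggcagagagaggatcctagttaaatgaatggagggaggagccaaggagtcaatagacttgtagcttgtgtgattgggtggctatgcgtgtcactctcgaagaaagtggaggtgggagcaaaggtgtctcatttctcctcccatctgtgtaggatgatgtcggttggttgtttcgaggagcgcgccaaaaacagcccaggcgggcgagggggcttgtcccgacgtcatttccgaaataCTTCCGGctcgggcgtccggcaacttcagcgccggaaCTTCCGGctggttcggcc
Ndufv3: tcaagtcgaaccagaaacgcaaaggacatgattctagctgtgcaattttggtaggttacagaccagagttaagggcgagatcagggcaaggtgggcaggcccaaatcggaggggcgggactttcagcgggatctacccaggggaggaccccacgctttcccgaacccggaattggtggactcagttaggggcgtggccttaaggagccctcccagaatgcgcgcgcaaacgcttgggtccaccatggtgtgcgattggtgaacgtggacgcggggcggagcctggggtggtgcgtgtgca

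Total counts ranged from 24863611 to 31713704 per sample. Levels are given as CPM, counts scaled to equal library size after TMM normalization, and the values of a group always follow the order of its replicate numbers. The targeted gene *Slc16a7* had 16.0, 11.04 and 11.2 CPM in MCT2 CO and 8.22, 4.97 and 5.34 CPM in MCT2 KO. Its highest MCT2 KO sample was thus below its lowest MCT2 CO sample, with a log2 fold change of -1.05 (SE 0.24) and an adjusted p of 0.370 by the quasi-likelihood test of edgeR. MCT2 CO replicate 3 stood apart on the first principal component (-22.7, against -3.54 to 11.8 for the other samples) and MCT2 KO replicate 2 on the second. The 12 macrophage and monocyte markers were abundant, with a summed level of 5694 to 7610 CPM in MCT2 CO and 6815 to 10780 CPM in MCT2 KO, and 11 of the 11 tested had a fold change above 0. *Itgam*, which encodes CD11b itself, had at most 6 counts. The cells were selected by CD11b, so this count cannot be read as a lack of expression, and its cause was not tested. All 7 fibroblast markers had lower values in MCT2 KO, and their sum was 2045, 2239 and 3355 CPM in MCT2 CO against 1708 to 1819 CPM in MCT2 KO. The lists of the other cell types were lower, at 14.0 to 126 CPM in MCT2 CO and 14.2 to 199 CPM in MCT2 KO, and their ranges overlapped. Fewer cells of a type and less RNA per cell cannot be told apart in such bulk samples.

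The question was whether the machinery of oxidative phosphorylation differed between macrophages of MCT2 CO and MCT2 KO tumors. None of the 81 genes passed an adjusted p of 0.05 with an absolute log2 fold change of 0.58 by edgeR, where 0 of 13485 genes (0%) passed. At an unadjusted p under 0.05, 4 of the 81 were higher in MCT2 KO (*Ndufv3*, *Ndufa11*, *Sdha* and *Sdhd*), where 3.77% of all genes tested were, and 6 were lower (*Ndufa6*, *Uqcrq*, *Cox7a1*, *Cox8a*, *Cox6a1* and *Cox5b*), where 5.6% of all genes were. All MCT2 KO samples exceeded all MCT2 CO samples for 11 of the 81 genes, where this held for 7.07% of all genes, and were below them for 6, where it held for 8.77%. The share of genes without overlap was thus 13.6% on the higher side and 7.41% on the lower. limma-voom called 0 of the 81, but its share over all genes is not given, so this 0 says nothing particular about them. DESeq2 was also run without a filter other than 1 count per gene, and it put 110 of 14202 genes (0.775%) at an adjusted p of at most 0.05, among them *Ndufv3* (log2 fold change 0.47, adjusted p 0.00743) and *Cox6a1* (-0.56, adjusted p 0.0274). With the fold threshold added it called 83 genes (0.584%), of which 0 were among the 81.

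The differences were small. The median log2 fold change of the 81 genes was -0.0035, with 39 above and 42 below 0, beside 0.00037 over all genes tested. A difference of less than 0.2 on the log2 scale was found for 68 of the 81 (83.95%), against 69.43% of all genes tested. The middle range, from the lower to the upper quartile, ran from -0.09 to 0.10, against -0.13 to 0.12. The subunit genes were more abundant than the typical gene, with a median of 44.1 against 30.1 CPM, and varied less between replicates, with a median biological coefficient of variation of 0.105 against 0.125.

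**Figure D1:**
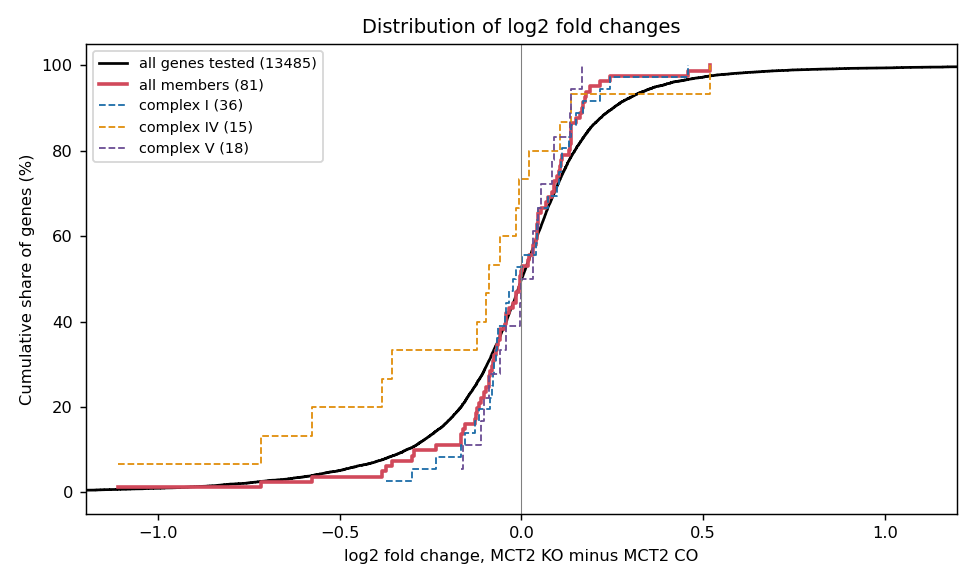
Cumulative share of genes (percent) against the log2 fold change of MCT2 KO minus MCT2 CO, for all 13485 genes tested, the 81 subunit genes and complexes I, IV and V. The curve of the 81 genes is steeper than that of all genes around 0, and the curve of complex IV lies to the left, with a median of -0.09; the horizontal axis ends at 1.2 in both directions.

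Summed over the 81 genes, the level was 5300, 5016 and 5485 CPM in MCT2 CO (mean 5267 ± 236, SD, n = 3). In MCT2 KO it was 5275, 5585 and 5198 CPM (5353 ± 205, SD, n = 3). The groups overlapped, and the difference between their means was smaller than either SD. The sums of complexes I, III, IV and V overlapped between the groups as well, whereas those of complex II were 388, 378 and 391 CPM in MCT2 CO and 429, 439 and 416 CPM in MCT2 KO, without overlap. This was the complex with the fewest genes, and *Sdha* made up the largest part of its sum.

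**Figure D2:**
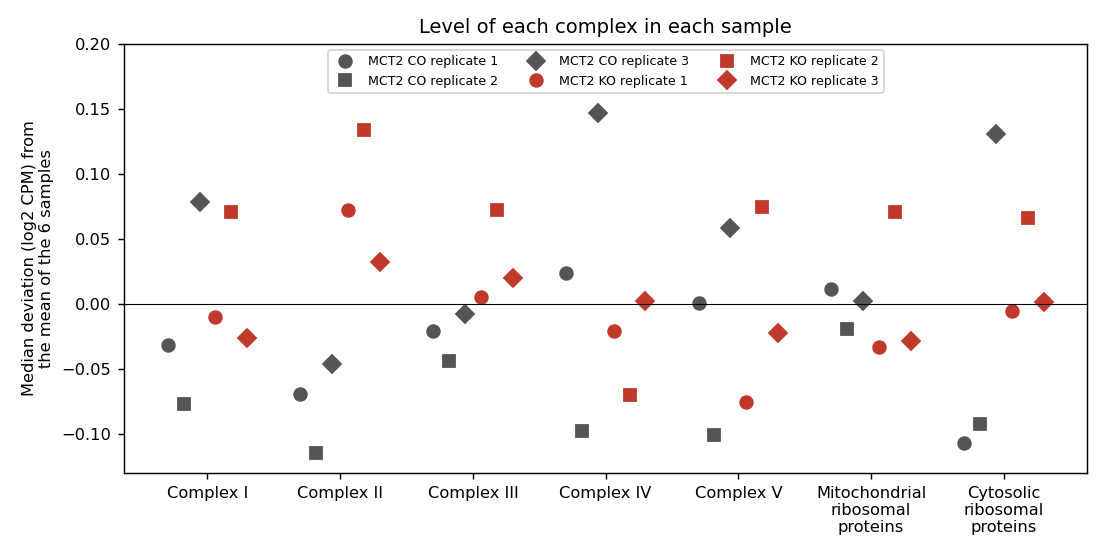
Median deviation of the genes of each complex, in log2 CPM, from the mean of the 6 samples, with mitochondrial and cytosolic ribosomal protein genes for comparison. Points are single samples; the complex II values of the MCT2 KO samples (0.03 to 0.13) lie above those of the MCT2 CO samples (-0.12 to -0.05), those of complex III do so by a small margin, and MCT2 CO replicate 3 is highest for complex IV at 0.15.

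Complex I contributed the most genes. Its 7 core subunits, which carry the flavin and the iron-sulfur clusters, had log2 fold changes from -0.13 (*Ndufs3*) to 0.17 (*Ndufs1*), with 5 above and 2 below 0. Its 29 accessory genes had a median of -0.04. *Ndufv3*, a small accessory subunit of the NADH-oxidizing tip, had 24.8, 27.1 and 26.1 CPM in MCT2 CO and 34.9, 35.2 and 37.1 CPM in MCT2 KO. The groups were clearly apart, and each spread was small beside the gap. The log2 fold change was 0.46 (SE 0.08, unadjusted p 0.000529, adjusted p 0.370 by edgeR), and it stayed between 0.43 and 0.49 with any single mouse left out. The gene lies on the plus strand of chromosome 17, from 31520115 to 31531331 of GRCm38, and no exon base of it falls inside another gene.

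*Ndufa6*, an accessory subunit that binds the mitochondrial acyl carrier protein, had the lowest fold change of complex I. Its level was 31.0, 29.7 and 36.1 CPM in MCT2 CO and 28.0, 24.1 and 22.7 CPM in MCT2 KO, so that the groups did not overlap but came close. The log2 fold change was -0.37 (SE 0.12, adjusted p 0.433 by edgeR). *Ndufa11*, which encodes a membrane subunit, had 21.9, 25.8 and 25.2 CPM in MCT2 CO and 28.1, 30.1 and 28.2 CPM in MCT2 KO, a log2 fold change of 0.24 (SE 0.10, adjusted p 0.509 by edgeR). *Ndufa2*, the most abundant complex I gene per kilobase of exon, showed no such separation, with 31.6, 38.5 and 50.2 CPM in MCT2 CO and 35.5, 36.9 and 34.7 CPM in MCT2 KO. The 3 MCT2 KO values lay close together, whereas MCT2 CO replicate 3 was far above the other controls. *Ndufa4* had the same pattern, with 47.4, 47.0 and 63.0 CPM in MCT2 CO and 47.5, 47.5 and 46.3 CPM in MCT2 KO. Its isoform *Ndufa4l2*, a gene known to respond to hypoxia, had 37 counts in all and was not tested.

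Complex II was the only complex whose genes all had a fold change above 0, with a median of 0.18 over its 4 genes. *Sdha*, the flavoprotein that oxidizes succinate, had 169, 166 and 160 CPM in MCT2 CO and 188, 193 and 182 CPM in MCT2 KO. The lowest MCT2 KO sample stood above the highest MCT2 CO sample. The log2 fold change was 0.19 (SE 0.07, unadjusted p 0.0366, adjusted p 0.509 by edgeR). *Sdhd*, one of the pair of membrane anchors, had 87.6, 82.7 and 87.1 CPM in MCT2 CO and 98.8, 100.1 and 92.2 CPM in MCT2 KO, a log2 fold change of 0.18 (SE 0.07, adjusted p 0.531 by edgeR). *Sdhc*, the other anchor, had 57.003, 54.3 and 59.2 CPM in MCT2 CO and 60.6, 69.4 and 62.4 CPM in MCT2 KO, a log2 fold change of 0.17 (SE 0.09, adjusted p 0.569 by edgeR). The groups of these 3 genes did not overlap. The iron-sulfur subunit *Sdhb* differed less, with 73.8, 75.5 and 84.1 CPM in MCT2 CO and 80.7, 76.6 and 78.8 CPM in MCT2 KO. The median of the complex lay between 0.14 and 0.21 with any single mouse left out.

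In complex III, the pair of core proteins and the Rieske iron-sulfur protein had values above 0, at 0.16 for *Uqcrc2*, 0.14 for *Uqcrfs1* and 0.04 for *Uqcrc1* on the log2 scale. *Uqcrc2* had 94.2, 93.2 and 84.2 CPM in MCT2 CO and 102.9, 103.8 and 97.3 CPM in MCT2 KO, with an adjusted p of 0.566 by edgeR. The MCT2 KO values were all higher. *Uqcrq*, a small subunit that binds ubiquinone, went the other way, with 40.7, 39.8 and 43.8 CPM in MCT2 CO and 36.9, 34.2 and 30.3 CPM in MCT2 KO, a log2 fold change of -0.29 (SE 0.10, adjusted p 0.444 by edgeR). *Uqcrh*, the hinge protein that contacts cytochrome c1, was the most abundant gene of the complex per kilobase and overlapped between the groups, with 79.9, 72.6 and 93.5 CPM in MCT2 CO and 80.2, 89.0 and 88.7 CPM in MCT2 KO.

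Complex IV held the widest differences, with 11 of its 15 genes below 0 and a median log2 fold change of -0.09. *Cox6a1*, the general isoform of subunit VIa, had 75.4, 62.1 and 64.9 CPM in MCT2 CO and 52.6, 43.7 and 39.6 CPM in MCT2 KO. The groups did not overlap, and the log2 fold change was -0.58 (SE 0.13, unadjusted p 0.00182, adjusted p 0.370 by edgeR). *Cox8a*, the general isoform of subunit VIII, had 96.7, 60.4 and 60.7 CPM in MCT2 CO and 55.8, 39.7 and 37.2 CPM in MCT2 KO. Replicate 1 was the highest of its group in both, and the groups did not overlap. The log2 fold change of -0.72 (SE 0.22, adjusted p 0.433 by edgeR) was -0.45 without MCT2 CO replicate 1. *Cox5b*, a zinc-binding subunit, had 43.8, 30.4 and 37.1 CPM in MCT2 CO and 33.3, 25.8 and 28.0 CPM in MCT2 KO, which overlapped, with a log2 fold change of -0.36 (SE 0.15, adjusted p 0.533 by edgeR). The partner subunit *Cox5a* had 72.5, 47.1 and 55.1 CPM in MCT2 CO and 55.1, 54.3 and 53.9 CPM in MCT2 KO, so that the spread of the controls covered all MCT2 KO values.

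*Cox7a1*, the isoform of subunit VIIa known from heart and skeletal muscle, had the lowest fold change of all 81 genes. Its level was low, at 1.63, 1.58 and 1.84 CPM in MCT2 CO and 0.67, 0.92 and 0.72 CPM in MCT2 KO, and the groups did not overlap. The log2 fold change was -1.11 (SE 0.25, unadjusted p 0.00193, adjusted p 0.370 by edgeR). Its more general counterpart *Cox7a2* had 73.3, 65.1 and 89.2 CPM in MCT2 CO and 61.5, 78.6 and 78.1 CPM in MCT2 KO, and *Cox7a2l* 83.2, 83.1 and 82.6 CPM and 100.4, 82.8 and 90.7 CPM. Both overlapped between the groups.

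The isoforms of subunit IV gave the highest fold change of the 81 genes and one of the highest levels. *Cox4i2*, known as the lung and hypoxia-responsive isoform, had 0.83, 1.23 and 1.47 CPM in MCT2 CO and 1.43, 1.84 and 1.77 CPM in MCT2 KO, a log2 fold change of 0.52 (SE 0.28, adjusted p 0.593 by edgeR), and the groups overlapped. At this low level the value rested on single mice, at 0.32 without MCT2 CO replicate 1, where *Ndufv3* at 0.43 was above it, and 0.71 without MCT2 CO replicate 3. The general isoform *Cox4i1* had 198, 208 and 229 CPM in MCT2 CO and 228, 236 and 220 CPM in MCT2 KO, a log2 fold change of 0.11 (SE 0.09). For subunit VIb, *Cox6b1* had 81.9, 74.6 and 93.9 CPM in MCT2 CO and 86.0, 80.5 and 87.4 CPM in MCT2 KO, and the testis isoform *Cox6b2* was at or below 1.02 CPM in every sample. Of the muscle isoforms, *Cox6a2* had 0 counts and *Cox8b* 10.

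**Figure D3:**
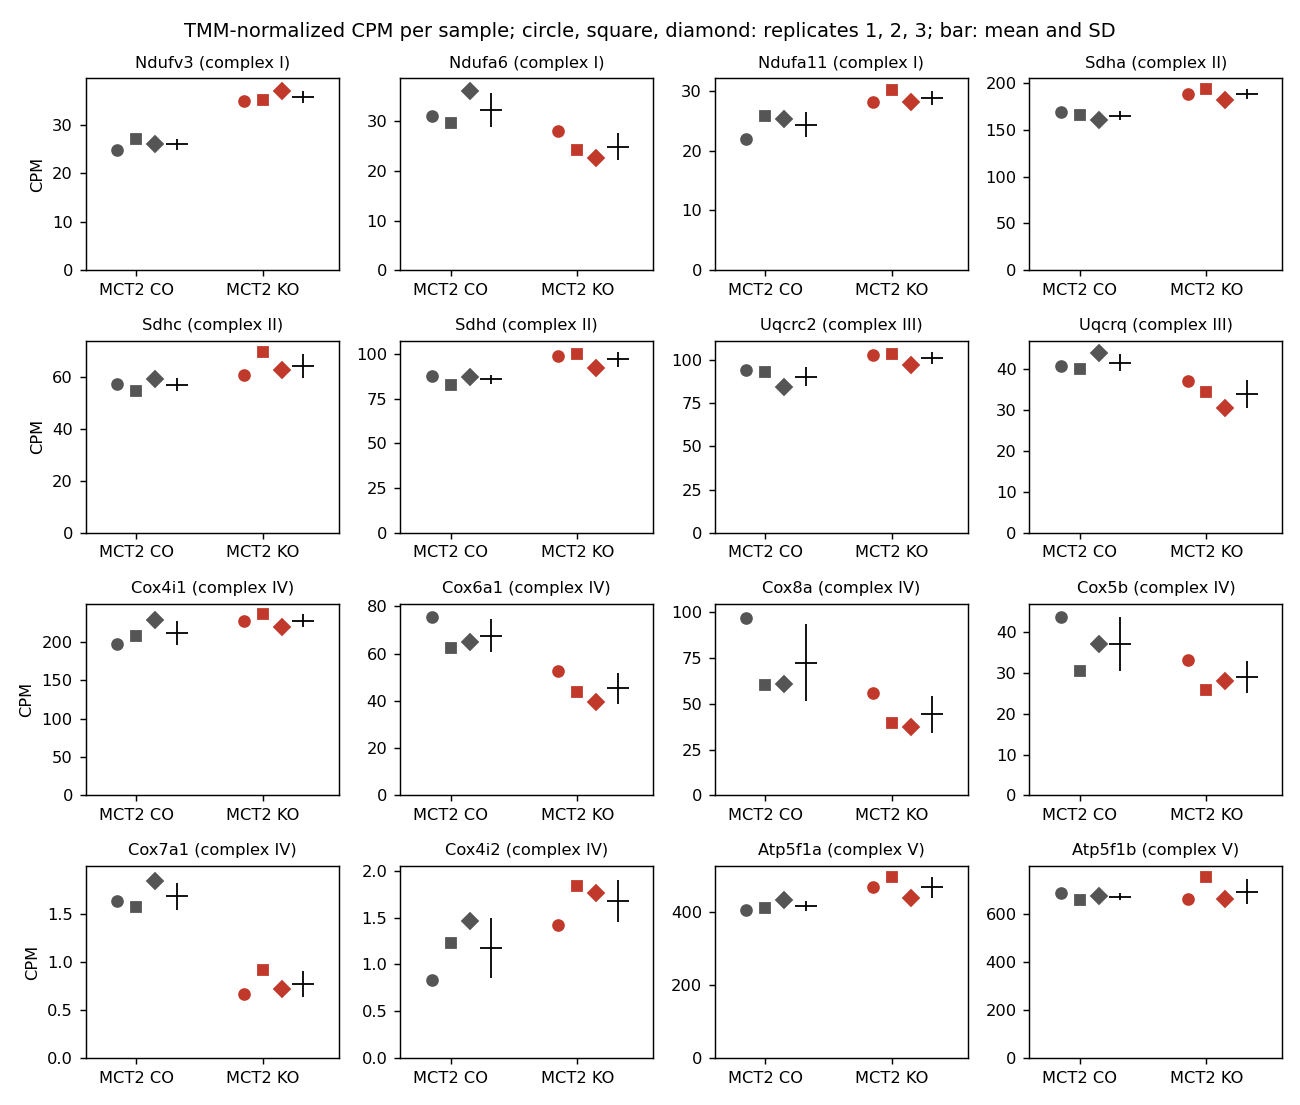
TMM-normalized CPM in each sample for 16 subunit genes, with vertical axes that start at 0, replicates marked by shape, and a cross for the mean and SD of each group (n = 3). MCT2 KO samples lie above MCT2 CO samples for *Ndufv3*, *Sdha* and *Sdhd* and below them for *Cox6a1*, *Cox8a* and *Cox7a1*, while *Atp5f1b* and *Cox4i1* overlap.

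The ATP synthase genes differed little. All 18 genes of complex V lay between -0.17 and 0.17 on the log2 scale, 9 on each side of 0. None had an unadjusted p under 0.05, where 3.77% of all genes tested were higher and 5.6% lower. *Atp5f1b*, the catalytic beta subunit, had 686, 655 and 672 CPM in MCT2 CO and 662, 753 and 661 CPM in MCT2 KO, and only MCT2 KO replicate 2 was outside the range of the controls on the high side. *Atp5f1a*, the alpha subunit, had 404, 410 and 432 CPM in MCT2 CO and 468, 493 and 437 CPM in MCT2 KO, which did not overlap, with a log2 fold change of 0.17 (SE 0.09, adjusted p 0.596 by edgeR). The genes of the c-ring encode the same mature protein. *Atp5mc3* had 156, 138 and 154 CPM in MCT2 CO and 131, 147 and 122 CPM in MCT2 KO, while *Atp5mc1* ranged from 32.9 to 45.6 CPM and *Atp5mc2* from 22.0 to 26.6 CPM over all samples. The inhibitor *Atp5if1* had a log2 fold change of -0.0007.

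A set of 16 subunits held core or catalytic ones of complexes I, II, III and V and, for complex IV, whose catalytic subunits are encoded in mitochondrial DNA, the general subunits *Cox4i1*, *Cox5a* and *Cox5b*. Of these, 12 were above and 4 below 0, with a range from -0.36 (*Cox5b*) to 0.19 (*Sdha*). Per kilobase of transcript, the highest mean levels were those of *Atp5f1b* (356 CPM per kb), *Cox4i1* (291), *Atp5mc3* (197), *Uqcrh* (177), *Cox6b1* (173) and *Atp5f1a* (171). The lowest were *Cox5b-ps* (1.12 CPM per kb), *Cox6b2* (1.39), *Cox4i2* (1.96) and *Cox7a1* (2.80).

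**Figure D4:**
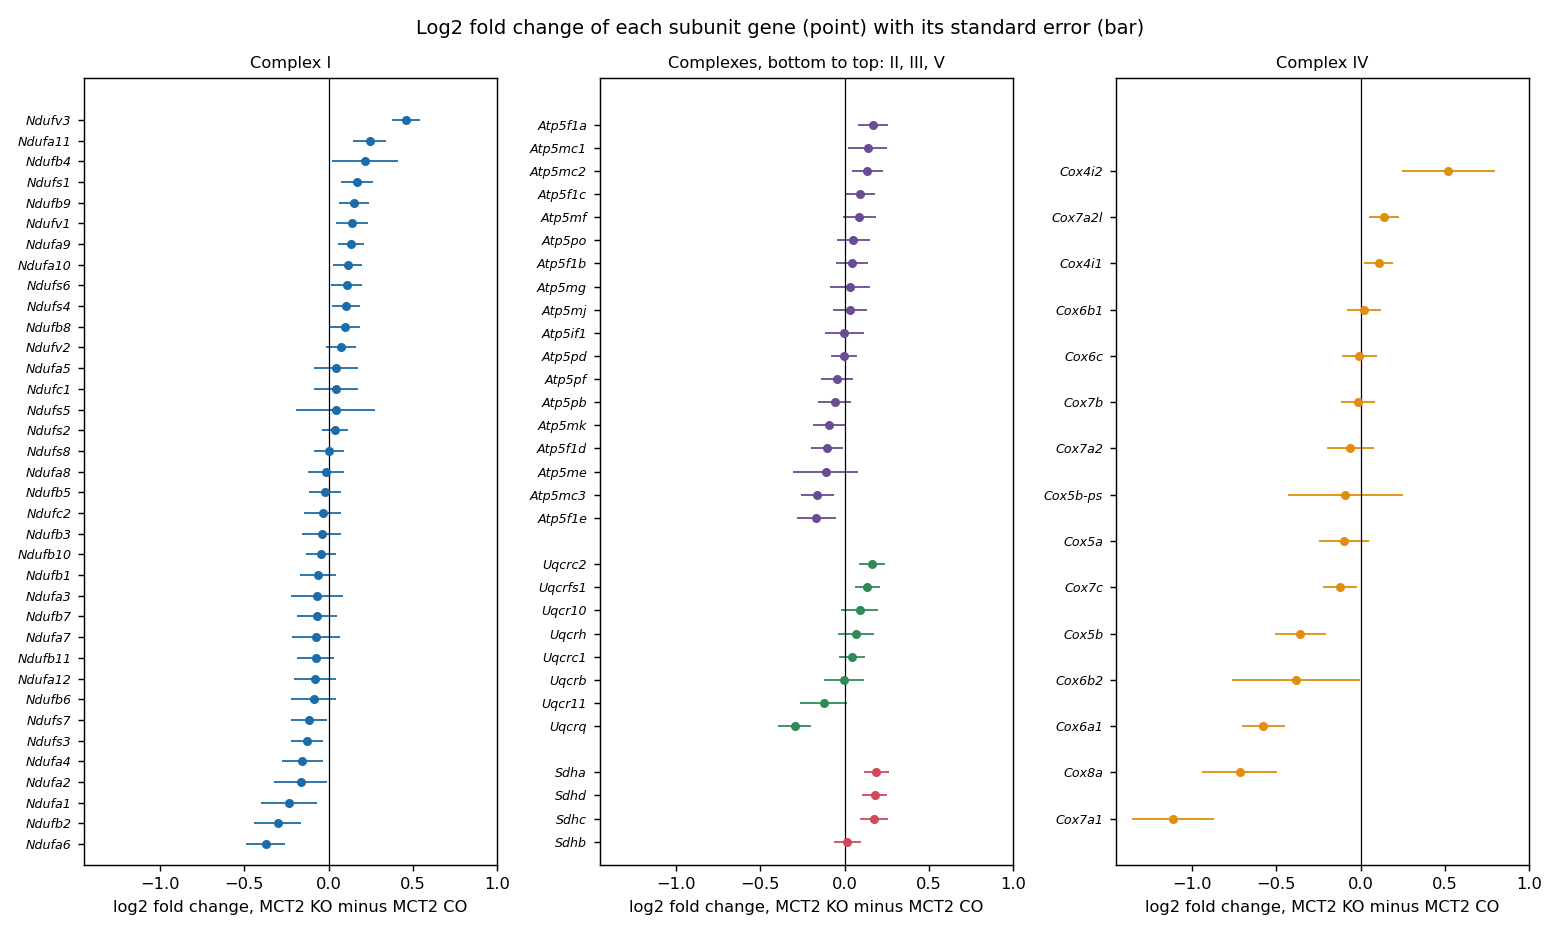
Log2 fold change of MCT2 KO minus MCT2 CO for each of the 81 genes (points) with its standard error (bars), by complex. Most points lie within 0.2 of 0; *Ndufv3* at 0.46 and *Cox6a1*, *Cox8a* and *Cox7a1* at -0.58, -0.72 and -1.11 stand farthest from it relative to their standard errors.

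Fold changes were related to transcript length. The 31 genes with transcripts of at most 600 bases had a median log2 fold change of -0.09, with 10 above and 21 below 0, and the 49 longer ones a median of 0.04, with 29 above and 20 below 0. Across the 80 genes with a coding transcript length, which share the same 6 libraries, the Spearman correlation of length and log2 fold change was 0.522, whereas it was -0.00086 over 13273 tested genes. The subunit genes have shorter transcripts, with a median of 724 against 2705 bases for all genes tested. The correlation was not computed for other genes of like length. The deviation of a sample from the gene means correlated with length at 0.361 and 0.378 in MCT2 KO replicates 1 and 2. The correlation was strongest in MCT2 CO replicate 3, at -0.59. In this control the short subunit genes lay a median of 0.22 above the mean of the 6 samples on the log2 scale, and the longer ones 0.0048 above it. The cytosolic ribosomal protein genes had a median transcript of 774 bases. Their median deviation was -0.11 and -0.09 in MCT2 CO replicates 1 and 2, -0.0054 to 0.066 in MCT2 KO, and 0.13 in this control. Without this control the correlation of length and log2 fold change was 0.260, and the medians were 0.03 and 0.07. The median of complex IV then was 0.0092 and that of complex I 0.06, and 56 of the 81 genes were above 0, while *Cox6a1* at -0.60, *Cox8a* at -0.83 and *Cox7a1* at -1.04 stayed low. The same library had the highest sum of fibroblast markers, and its part in these values was not tested beyond leaving it out.

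**Figure D5:**
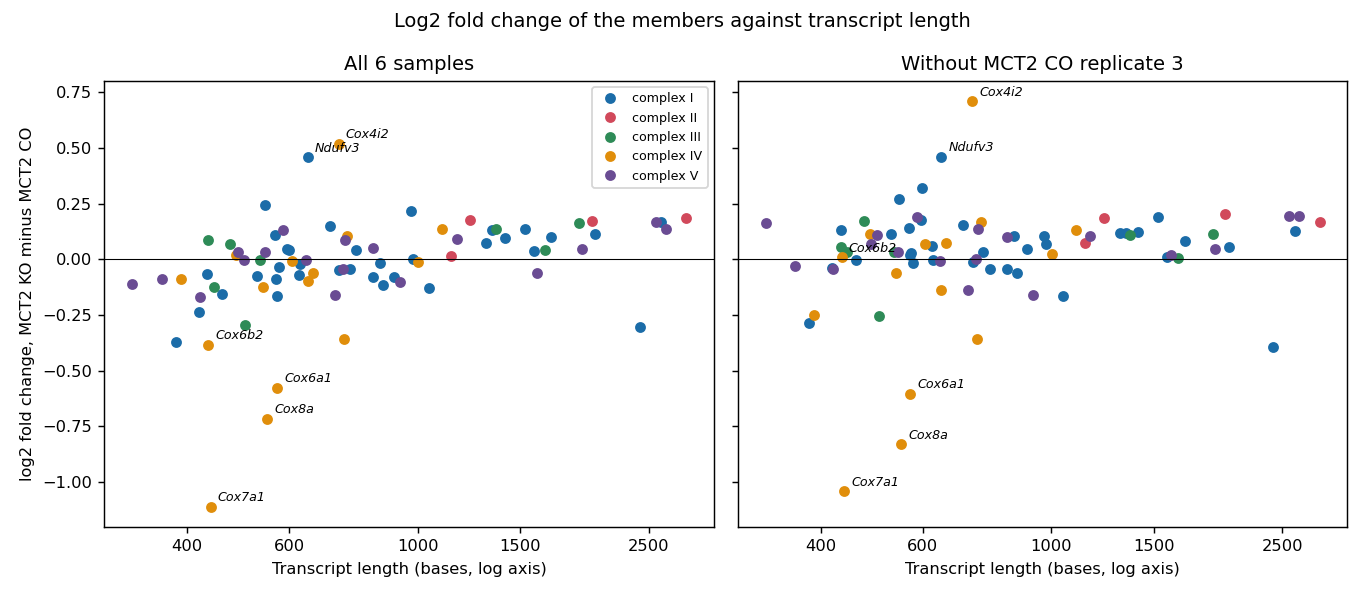
Log2 fold change against transcript length (bases, log axis) for the 80 subunit genes with a length, with all 6 samples (left) and without MCT2 CO replicate 3 (right). The Spearman correlation is 0.522 on the left and 0.260 on the right, and *Cox6a1*, *Cox8a* and *Cox7a1* are low in both.

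Genes that work with these subunits were described in the same way. None of those tested passed both thresholds by edgeR, where 0 of 13485 genes (0%) did, so this says nothing particular about them. Of the 42 tested assembly factors, 1 was higher (2.38%, against 3.77% of all genes tested) and 3 were lower (7.14%, against 5.6%) in MCT2 KO at an unadjusted p under 0.05, shares near those of all genes. The genes named here are those with such a p. *Coa6*, a copper-handling factor for complex IV, had 8.87, 7.999 and 8.58 CPM in MCT2 CO and 4.99, 5.43 and 4.70 CPM in MCT2 KO, a log2 fold change of -0.75 (SE 0.14, adjusted p 0.370 by edgeR). *Cox14*, needed for the synthesis of the COX1 protein, had 20.8, 20.5 and 19.5 CPM in MCT2 CO and 15.9, 14.2 and 12.01 CPM in MCT2 KO, a log2 fold change of -0.53 (SE 0.12, adjusted p 0.370 by edgeR). Neither gene overlapped between the groups. *Ndufaf8*, a complex I factor, was at -0.87 (SE 0.27) and *Cox15*, a heme A synthase, at 0.20 (SE 0.08).

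Among 16 regulators of respiratory genes, 12 were below 0 with a median of -0.10. Over all genes tested, 6732 of 13485 were below 0 with a median of 0.00037. *Myc* and *Pprc1* were lower at an unadjusted p under 0.05 (12.5%, against 5.6% of all genes tested). *Myc* had 120, 137 and 174 CPM in MCT2 CO and 120, 114 and 96.0 CPM in MCT2 KO, a log2 fold change of -0.38 (SE 0.15, adjusted p 0.502 by edgeR). *Pprc1*, a coactivator related to PGC-1, had 88.7, 95.7 and 89.4 CPM in MCT2 CO and 77.0, 81.2 and 83.3 CPM in MCT2 KO, a log2 fold change of -0.18 (SE 0.08, adjusted p 0.529 by edgeR). The 13 genes of coenzyme Q synthesis had a median of 0.07, with 0 at an unadjusted p under 0.05. Over all genes tested, 3.77% were higher and 5.6% lower at that level. Of the 10 tested carriers and subunits outside the symbol rule, 1 (10%) was lower at that level (*Ndufab1*, the acyl carrier protein, at -0.38).

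For the mitochondrial ribosome, 0 of 74 tested genes were higher and 4 lower at an unadjusted p under 0.05, with a median of 0.0015. The lower share was 5.41%, near the 5.6% of all genes tested, of which 3.77% were higher. For the cytosolic ribosome, 1 of 75 was higher (1.33%) and 2 were lower (2.67%), with a median of 0.04. The study listed 9 of the subunit genes for oxidative phosphorylation in its single-nucleus data and reported them as reduced in MCT2 KO in several cell populations. From its list it concluded that genes of the electron transport chain were jointly suppressed in MCT2 KO macrophages. In the bulk RNA of CD11b+ cells, which differs from RNA of single nuclei, 4 of these 9 were above and 5 below 0. *Ndufa11* at 0.24 and *Uqcrq* at -0.29 were at the ends. That list came from the same experiment and is not independent evidence of a direction.

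Of the 13 subunits encoded in mitochondrial DNA, 8 were tested, with a median log2 fold change of -0.0057. None had an unadjusted p under 0.05, where 3.77% of all genes tested were higher and 5.6% lower. *COX1*, the catalytic subunit of complex IV, had 6121, 4956 and 4447 CPM in MCT2 CO and 6263, 5502 and 5411 CPM in MCT2 KO, a log2 fold change of 0.15 (SE 0.15, adjusted p 0.790 by edgeR). *COX2*, *COX3*, *ATP6*, *ATP8* and *ND4L* were listed with at most 11 counts over all samples, beside 893888 for *COX1*.

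The 7 genes below 60 counts were *Ndufa4l2*, *Ndufb11b*, *Ndufa13*, *Cox6a2*, *Cox7b2*, *Cox8b* and *Cox8c*. *Ndufa13* encodes a complex I subunit that cells generally need, yet it had 0 counts. All its exon bases lie inside the spans of other genes, as do those of *Cox6a2*. The gene lengths in the table were those of whole gene spans, and of 974 coding genes with all exons inside another span 93.3% had under 60 counts, against 41% of 16261 coding genes that overlap no other. Of the 81 genes, 24 had some exon bases inside another span, up to 69.0% for *Ndufb9* and 64.6% for *Ndufb8*, and their levels are uncertain. The median log2 fold change of the other 57 was 0.0011. Many subunit genes also have processed pseudogenes of near-identical sequence, and the sources used here do not say how reads that map to several places were counted.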

How the data were processed

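Poly-A RNA of CD11b+ tumor cells from 3 MCT2 CO and 3 MCT2 KO mice was sequenced with a stranded kit. Per the labels and the methods, the authors used FastQC 0.12.0, MultiQC 1.28, STAR 2.7.11b (GRCm38) and featureCounts 2.1.1, and deposited raw counts per gene without normalization or pooling. The annotation, strand setting and treatment of multimapped reads are not given in the sources used here. Groups and replicate numbers came from the sample titles.

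The deposited counts were fitted unchanged in edgeR 4.0.16 (R 4.3.3). filterByExpr (minimum count 10, minimum total 15) kept 13485 genes, which were scaled by TMM and compared by the quasi-likelihood test without covariates, with Benjamini-Hochberg adjustment over all of them. Calls used the study's thresholds (adjusted p of at most 0.05, absolute log2 fold change of at least 0.58). The SE was the absolute log2 fold change divided by the square root of F. Per-kilobase levels used the median length of basic coding transcripts in GENCODE M21 (GRCm38), from which positions were also taken, since 2.4% of the genes start at the same position in the table. The table uses the newer symbols of ATP synthase genes, and older ones were matched as synonyms. Nothing in the labels states that the mice of a group are independent beyond being separate samples, and p values measure the spread between them.

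The subunit genes and all gene lists were chosen with earlier results of these data known. Genes given with values in every sample were, per complex, those with the smallest unadjusted p in each direction, the highest CPM per kilobase of exon and the alternative isoforms. *Sdhb*, *Sdhc*, *Ndufa11*, *Cox5a*, *Cox5b*, *COX1* and the assembly factors and regulators named were added after their values were seen. Alternatives were DESeq2 1.42.0, limma-voom (limma 3.58.1), other scalings, no filter beyond 1 count, a replicate block and each mouse left out. The procedure was tested on simulated data. Counting error is small at these depths except for genes at a few CPM. No replicate pair was close enough to be a single library deposited again.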

Additional observations from a re-analysis of the deposited data

How the results depend on the processing

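The count of 0 subunit genes past both thresholds held under every alternative run. Over all genes, 0 of 13485 passed by edgeR and 83 of 14202 (0.584%) by DESeq2 on all genes. For the other runs the share over all genes is not given. The number higher in MCT2 KO at an unadjusted p under 0.05 was 4, and 2 both with all genes of at least 1 count and with the replicate block. With each mouse left out it ranged from 1 to 3, and the number lower from 3 to 6. The genes without overlap between groups then numbered 11 to 23 on the higher side (23 without MCT2 CO replicate 3, 19 without MCT2 KO replicate 1) and 7 to 14 on the lower side (14 without MCT2 CO replicate 2), partly because smaller groups overlap less easily. The shares over all genes in these runs are not given. These counts and those at an unadjusted p are therefore no result about the subunits. The number at an unadjusted p was 1 higher and 3 lower without MCT2 KO replicate 3. The median log2 fold change ranged from -0.0656 to 0.0578 for complex I, from 0.0158 to 0.11 for complex III and from -0.15 to 0.0092 for complex IV. The signs of small differences turned in some of these runs, with ranges of -0.0107 to 0.17 for *Uqcrh*, -0.0533 to 0.11 for *Cox6b1*, -0.31 to 0.029 for *Ndufa2*, -0.56 to 0.0092 for *Cox6b2*, -0.16 to 0.0717 for *Cox7a2* and -0.0199 to 0.0854 for *Atp5f1b*; beyond the change of samples, the cause was not tested. *Cox7a2* was at 0.0717 without MCT2 CO replicate 3 and 0.06 without MCT2 KO replicate 1. The correlation with length, chosen after the data were seen, ranged from 0.260 to 0.575. DESeq2 put *Ndufv3* (adjusted p 0.00626) and *Cox6a1* (0.0239) past 0.05 on the filtered genes too.

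The deviations of mice with the same replicate number had correlations of 0.216, -0.247 and -0.161. With 3 mice a group, these values cannot show whether the numbers pair the samples, and the block is given as an alternative. With 3 mice a group, differences of the size seen in complex II (0.18 on the log2 scale) did not pass the adjusted threshold, which does not show that they are absent.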
